A study of Homo sapiens with 6 samples.

Results

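A set of 10 genes of glucose phosphate and glycogen metabolism was followed in U87 cells, an established human glioblastoma line, after knockdown of the long noncoding RNA LINC00152. They are the phosphoglucomutase genes PGM1, PGM2, PGM2L1 and PGM3 and the glycogen genes UGP2, GYS1, GYG1, GBE1, PYGL and PYGB, found by symbol as 10 of 27192 genes in the deposited tables, and all 10 had enough counts to be among the 14078 genes tested. The set was put together because PGM2L1 stood far higher after knockdown, so every difference of these 10 genes between the groups is given below as a description, without a p-value. Where a member is said to pass or miss the threshold, or has a confidence interval, that too is a description and not a test. Cells in the siLINC00152 group received a mixture of 2 siRNAs against LINC00152, and cells in the siGL2 group received siGL2, described by the submitters as a nonspecific control. Both groups were transfected 2 times with Lipofectamine RNAiMAX, 24 hours apart, and collected 24 hours after the last round. Each group holds 3 libraries of polyA RNA (A, B and C) from this 1 line. No untransfected cells are among the samples used here, and the effects of the 2 siRNAs cannot be told apart.

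Phosphoglucomutases move a phosphate between positions on a sugar. PGM1 connects glucose 6-phosphate, the first product of glucose uptake, with glucose 1-phosphate, from which UGP2 makes UDP-glucose. Glycogenin (GYG1) starts a chain from UDP-glucose, glycogen synthase (GYS1) lengthens it and the branching enzyme (GBE1) branches it, while the phosphorylases (PYGL, PYGB) release glucose 1-phosphate again. PGM2L1 differs from its relatives in that it mainly makes glucose 1,6-bisphosphate, the activating cofactor of PGM1 and of other sugar phosphomutases, and it is known above all from brain.

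The promoter windows of the pair of members with the largest rises, PGM2L1 and GBE1, are shown because these genes differ most between the groups. They come from RefSeq (build GRCh38.p14), which matched all 10 members with 14 windows, and run 5′ to 3′ on the gene's strand from 250 bases before to 50 bases after the start. The PGM2L1 window is chr11:74398384-74398683 on the minus strand and the GBE1 window is chr3:81761596-81761895 on the minus strand. Capitals mark the hypoxia response cores ACGTG and GCGTG and the GC box GGGCGG, read on both strands.

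PGM2L1: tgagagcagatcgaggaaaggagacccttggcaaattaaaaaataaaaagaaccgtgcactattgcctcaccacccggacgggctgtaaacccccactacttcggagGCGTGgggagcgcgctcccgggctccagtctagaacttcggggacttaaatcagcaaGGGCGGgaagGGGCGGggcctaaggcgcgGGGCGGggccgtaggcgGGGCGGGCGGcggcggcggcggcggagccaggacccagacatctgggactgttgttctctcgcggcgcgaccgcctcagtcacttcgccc

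GBE1: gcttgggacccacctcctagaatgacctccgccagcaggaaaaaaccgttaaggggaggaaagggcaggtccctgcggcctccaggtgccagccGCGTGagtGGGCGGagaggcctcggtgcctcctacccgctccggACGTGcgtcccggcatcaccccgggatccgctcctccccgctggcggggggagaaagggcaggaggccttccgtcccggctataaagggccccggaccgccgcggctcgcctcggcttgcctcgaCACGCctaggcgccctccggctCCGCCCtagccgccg

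The PGM2L1 window holds GGGCGG at 5 places, of which one pair overlaps, and GCGTG at 1 place, with no ACGTG. The GBE1 window holds GGGCGG at 2 places, GCGTG at 2 and ACGTG at 1, and also the TATA box sequence TATAAA at 1 place. Of 35116 RefSeq windows of 300 bases, 44.95% hold GGGCGG, 36.5% hold GCGTG, 21.4% hold ACGTG and 11.5% hold TATAAA. Of the 14 member windows, 13 hold GGGCGG, 10 hold GCGTG and 6 hold ACGTG. The E-box CACGTG is in 2 of them and CCAAT in 4, beside 7.256% and 34.61% of all windows. Some members have more than 1 window, and the member windows are 51 to 77.3% G or C. The windows they are set beside were not matched for G and C. These matches describe the letters of the windows and say nothing about a factor bound there.

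Library totals lay between 41963120 and 43713662 counts in siLINC00152 cells and between 42139419 and 46234763 counts in siGL2 cells. LINC00152 itself stood at 114, 112 and 109 counts in siLINC00152 cells and at 650, 608 and 776 counts in siGL2 cells, which is 2.67 ± 0.108 against 15.1 ± 1.18 CPM (counts scaled to library size with TMM factors; SD, n = 3), so the labels match the targeted gene. Whether LINC00152 shares sequence with other genes was not tested. Replicate libraries differed by more than sampling noise, and siGL2 A stood furthest from the others, with a chi-square per degree of freedom of 10.9 and 13.7 against siGL2 B and C. The labels do not say whether replicates were separate cultures, so errors and p-values measure the spread between these libraries, which may be technical. VIM was the most abundant of 10 glioma and mesenchymal markers, at 6864 CPM in siLINC00152 cells and 8974 CPM in siGL2 cells, and 7 of the 10 were tested, whereas GFAP, SOX2 and S100B, which mark astrocytes and neural precursors, had too few counts. The summed level of these 10 markers was 17128 to 17755 CPM in siLINC00152 cells and 17999 to 18655 CPM in siGL2 cells. Summed markers of neurons reached 69.3 to 77.0 against 94.0 to 95.4 CPM, mostly SNAP25, and those of immune cells 286 to 313 against 331 to 335 CPM, mostly CD68, with AIF1 at 0 throughout. Endothelial markers summed to 1.78 to 1.83 against 1.92 to 2.60 CPM (PECAM1 the highest), epithelial ones to 1.10 to 1.56 against 1.06 to 1.46 CPM (EPCAM the highest, KRT5 at 0), and hepatocyte and muscle ones to 0.164 to 0.219 against 0.169 to 0.255 CPM (MYH7 at 0, ACTA1 the highest over all 6 libraries together).

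Of the members, 6 rose after knockdown, 2 fell and 2 stayed short of the threshold, set at an adjusted p under 0.05 in the edgeR fit over all genes. In that fit 64.3% of all tested genes passed, 32.2% upward and 32.2% downward, and since the set was chosen on this contrast nothing is read from the members' count. The median log2 fold change of the members was 0.24, beside −0.0011 for all genes tested. PGM2L1 was the one member that differed by at least 1.5-fold, with GBE1 just short of it at 1.48-fold. Of all 14078 tested genes, 2944 differed by at least 1.5-fold. The CPM of 8 members did not overlap between the groups, against 67.7% of all tested genes.

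**Figure D1:**
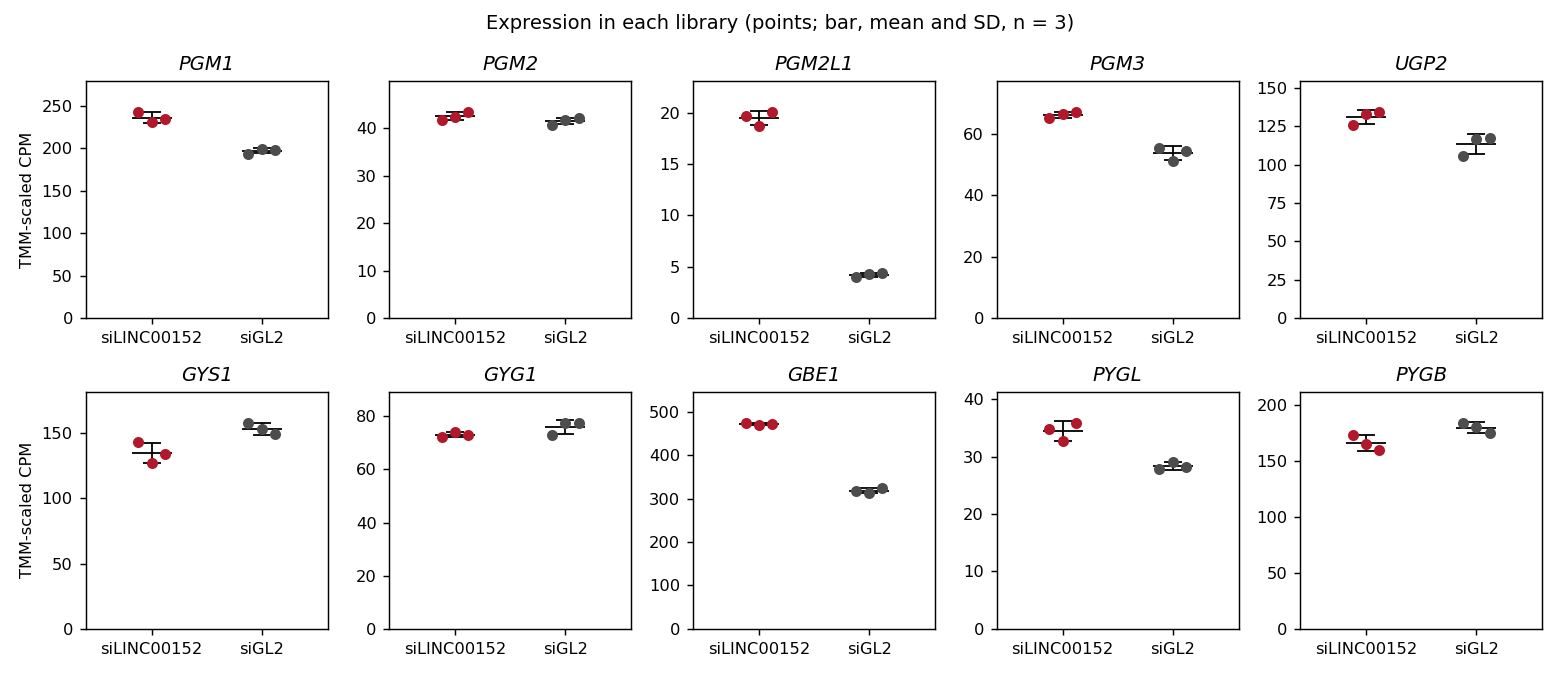
TMM-scaled CPM of the 10 genes in each of the 3 siLINC00152 and 3 siGL2 libraries (points), with mean and SD as bars and each axis starting at 0. PGM2L1 lies between 18.7 and 20.1 CPM after knockdown and between 4.03 and 4.35 CPM in the control, while PGM2 and GYG1 overlap between the groups.

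PGM2L1 (ENSG00000165434.7, chromosome 11, 74330318 to 74398473, minus strand, hg38) had the largest difference of the set. It was counted 810, 788 and 855 times in siLINC00152 cells and 175, 184 and 206 times in siGL2 cells. Scaled, these are 19.7, 18.7 and 20.1 CPM after knockdown and 4.03, 4.26 and 4.35 CPM in the control. Every knockdown library thus lay far above every control library, and replicates of a group differed little. The log2 fold change was 2.21 ± 0.07 (SE), or 4.62-fold, which ranked PGM2L1 number 43 of the 14078 tested genes from the highest rise down. Counts of the gene are little shared with other annotated genes, since 0.743% of its 75-base stretches also occur elsewhere, in the antisense gene AP001372.1. In bulk RNA, a change in the share of cells that express a gene and a change of RNA per cell cannot be told apart.

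The other mutases moved much less. PGM1 (chromosome 1, 63593276 to 63660245, plus strand), the main enzyme between glucose 1-phosphate and glucose 6-phosphate, stood at 243, 231 and 235 CPM in siLINC00152 cells and 194, 199.7 and 198 CPM in siGL2 cells. It rose by 0.26 ± 0.04 on the log2 scale (SE), or 1.20-fold, with no overlap. PGM3 (chromosome 6, 83161150 to 83193936, minus strand), which makes N-acetylglucosamine 1-phosphate in the hexosamine pathway, stood at 65.0, 66.4 and 67.0 CPM after knockdown and 55.4, 51.2 and 54.4 CPM in the control. All 3 knockdown libraries were again the higher ones, and its log2 fold change was 0.30 ± 0.05 (SE). Exons of DOP1A, listed as DOPEY1 in the deposited tables, overlap 14.8% of PGM3 exon bases on the opposite strand, whether the counting used strand is not stated in the labels, and DOPEY1 itself differed by 0.30 on the log2 scale (edgeR adjusted p = 0.000318). The part of that overlap in the PGM3 value was not tested.

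PGM2 (chromosome 4, 37826633 to 37862937, plus strand), the closest relative of PGM2L1 and an enzyme that acts mainly on ribose and deoxyribose phosphates, did not pass. Its levels were 41.8, 42.3 and 43.4 CPM in siLINC00152 cells and 40.7, 41.7 and 42.1 CPM in siGL2 cells, so the groups overlapped. Its log2 fold change was 0.03 ± 0.05 (SE), and the 95% confidence interval ran from −0.068 to 0.135, against 2.05 to 2.36 for PGM2L1. No 75-base stretch of PGM2 occurs in another annotated gene, so reads of the pair can be told apart at that length.

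Within a library, shares need no scaling between libraries. Of the summed CPM per kb of exon of the 4 mutase genes, PGM2L1 held 2.79, 2.75 and 2.88% in siLINC00152 cells and 0.704, 0.730 and 0.744% in siGL2 cells. PGM1 held 71.2 ± 0.745% after knockdown and 71.1 ± 0.502% in the control (SD, n = 3), PGM2 held 14.6 ± 0.407 and 17.0 ± 0.0985%, and PGM3 held 11.4 ± 0.329 and 11.1 ± 0.543%. The PGM2L1 level per kb was therefore 0.193 ± 0.00619 of the PGM2 level in siLINC00152 cells and 0.0426 ± 0.000962 of it in siGL2 cells. PGM2L1 remained the smallest contributor in all 6 libraries. PGM5, a relative without known mutase activity, was counted 3, 8 and 10 times in siLINC00152 cells and 12, 5 and 7 times in siGL2 cells and was not tested.

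**Figure D2:**
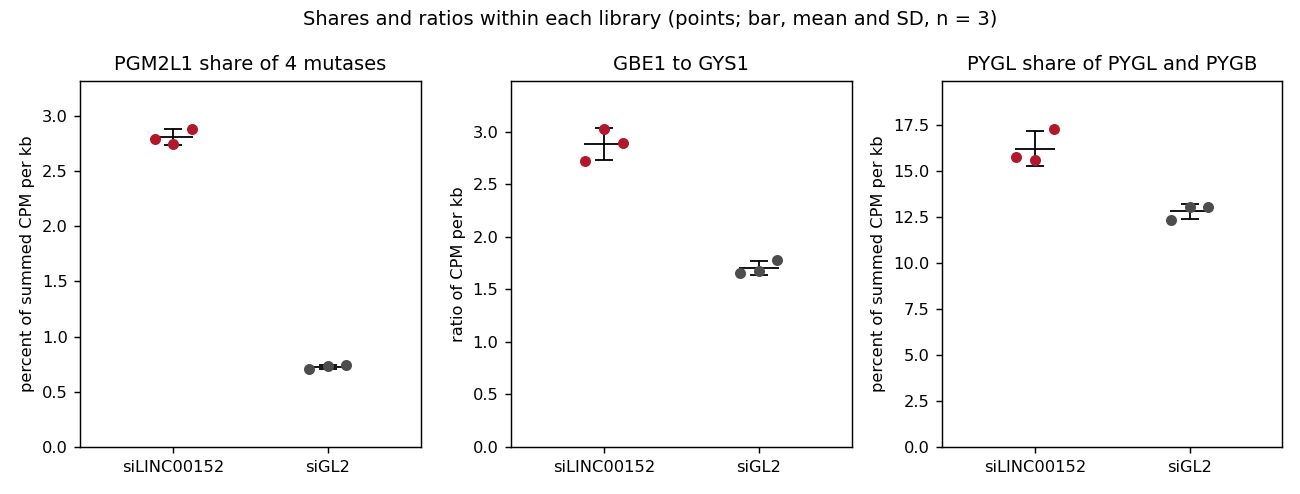
Measures taken within each of the 3 siLINC00152 and 3 siGL2 libraries (points; mean and SD as bars, axes from 0): the PGM2L1 share of the summed CPM per kb of 4 mutase genes, the ratio of GBE1 to GYS1 in CPM per kb, and the PYGL share of PYGL and PYGB. Each measure is higher in all knockdown libraries, with PGM2L1 at 2.75 to 2.88% against 0.704 to 0.744%.

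Among the genes that build glycogen, GBE1 and UGP2 stood higher after knockdown, GYS1 stood lower, and GYG1 overlapped between the groups. GBE1 (chromosome 3, 81489699 to 81762161, minus strand), the branching enzyme, stood at 475, 469.7 and 471 CPM in siLINC00152 cells and 318, 312 and 324 CPM in siGL2 cells. The groups lay far apart and replicates of each differed little. GBE1 rose by 0.57 ± 0.04 on the log2 scale (SE), or 1.48-fold, the second largest rise of the set. UGP2 (chromosome 2, 63840940 to 63891562, plus strand), the source of UDP-glucose, stood at 126, 133 and 134 CPM after knockdown and 106, 116 and 117 CPM in the control, with the lowest value in siGL2 A. Its log2 fold change was 0.21 ± 0.05 (SE).

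GYS1 (chromosome 19, 48968125 to 48993310, minus strand), the glycogen synthase of muscle and most other tissues, went the other way. It stood at 143, 127 and 134 CPM in siLINC00152 cells and 158, 153 and 149 CPM in siGL2 cells, so the groups came close but did not overlap. GYS1 fell by 0.19 ± 0.05 on the log2 scale (SE; log2 fold change −0.19). GYG1 (chromosome 3, 148991341 to 149027668, plus strand), the primer protein, stood at 72.2, 74.0 and 72.9 CPM after knockdown and 72.9, 77.3 and 77.6 CPM in the control, and the groups overlapped. The log2 fold change of GYG1 was −0.056 ± 0.046 (SE), with a 95% confidence interval of −0.153 to 0.041. When library size alone set the scale, GYG1 passed as lower, at −0.12 ± 0.05 (SE). The ratio of GBE1 to GYS1, in CPM per kb, was 2.73, 3.03 and 2.89 in siLINC00152 cells and 1.65, 1.67 and 1.78 in siGL2 cells, without overlap.

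The phosphorylases, which break glycogen down, moved in opposite directions. PYGL (chromosome 14, 50857891 to 50944736, minus strand), named for liver, stood at 34.8, 32.6 and 35.9 CPM in siLINC00152 cells and 27.8, 29.1 and 28.1 CPM in siGL2 cells. It rose by 0.28 ± 0.05 on the log2 scale (SE), with every knockdown library above every control library. PYGB (chromosome 20, 25248069 to 25298014, plus strand), named for brain, stood at 173, 165 and 159.8 CPM after knockdown and 184, 180.4 and 174 CPM in the control. Its groups nearly touched, at 173 and 174 CPM, and its log2 fold change was −0.11 ± 0.05 (SE). PYGB no longer passed without siGL2 B (−0.11 ± 0.06), without siLINC00152 B (−0.11 ± 0.05) or without siLINC00152 C (−0.087 ± 0.055), which leaves 1 member called lower in place of 2. PYGL made up 15.8, 15.6 and 17.3% of the summed CPM per kb of the pair in siLINC00152 cells and 12.4, 13.1 and 13.1% in siGL2 cells. PYGM, the muscle phosphorylase, was counted between 0 and 4 times per library and GYS2, the liver synthase, between 1 and 7 times, and neither was tested.

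**Figure D3:**
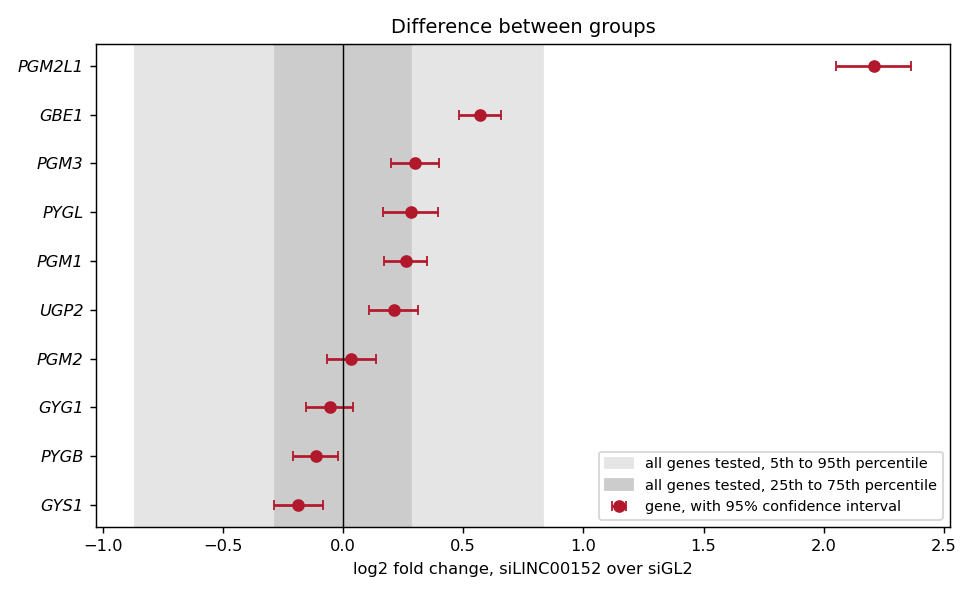
Log2 fold change (siLINC00152 over siGL2) of the 10 genes with 95% confidence intervals, over bands that hold the middle parts of all 14078 tested genes. PGM2L1 at 2.21 lies outside the 5th to 95th percentile band of −0.87 to 0.83, GBE1 at 0.57 lies inside it, and the other 8 lie between −0.19 and 0.30.

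Levels between genes were compared per kb of annotated exon. In siLINC00152 cells the order was GBE1, PGM1, PYGB, GYS1, GYG1, UGP2, PGM2, PGM3, PYGL and PGM2L1, and it was the same in siGL2 cells. GBE1 led with 91.3 ± 0.503 CPM per kb after knockdown and 61.5 ± 1.12 CPM per kb in the control (SD, n = 3). PGM1 followed with 56.1 ± 1.45 and 46.8 ± 0.767 CPM per kb. PGM2L1 came last in both groups, at 2.21 ± 0.0777 CPM per kb in siLINC00152 cells and 0.478 ± 0.0188 CPM per kb in siGL2 cells. PYGL, the next above it, stood 3.24 times higher than PGM2L1 after knockdown and 12.4 times higher in the control. GYG1 and UGP2 overlapped in siLINC00152 cells, a ratio of 1.03, and with this length no other neighbours in the order overlapped in either group. With the longest annotated transcript as the length, PGM3 (8.79 CPM per kb) and PYGL (9.29 CPM per kb) changed places in siGL2 cells, as they did in siLINC00152 cells (10.8 and 11.3 CPM per kb). With that length PYGB and GYS1 lay close in siGL2 cells, at means of 43.4 and 42.9 CPM per kb. Together the 4 mutase genes summed to 80.0, 77.4 and 78.9 CPM per kb in siLINC00152 cells and 65.0, 66.1 and 66.3 CPM per kb in siGL2 cells.

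**Figure D4:**
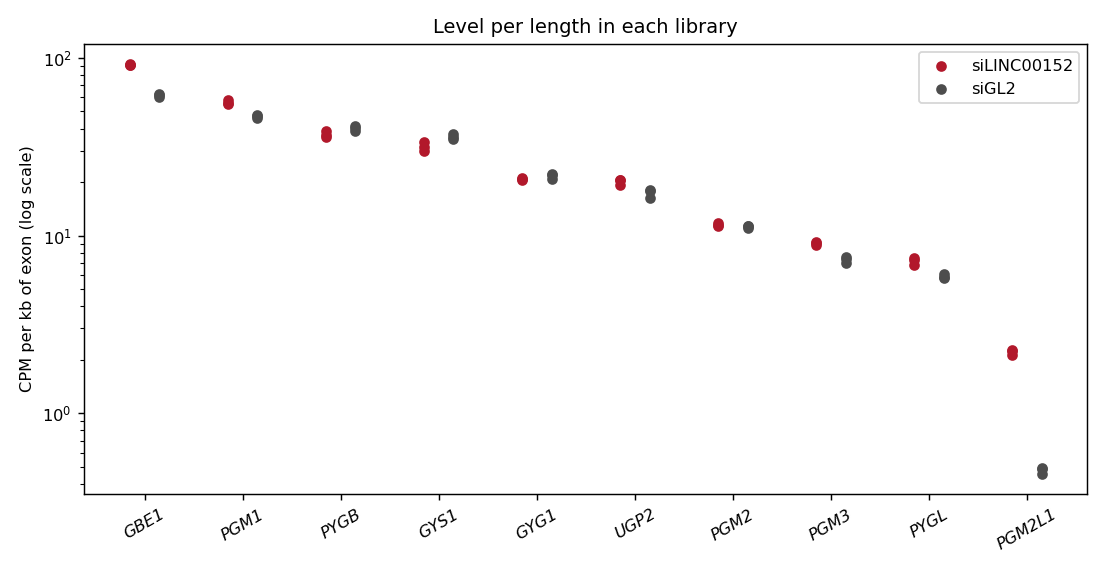
CPM per kb of exon (log axis) of each gene in the 3 siLINC00152 and 3 siGL2 libraries, ordered by the siGL2 mean. GBE1 is the highest and PGM2L1 the lowest in both groups, at 2.21 CPM per kb after knockdown and 0.478 CPM per kb in the control.

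The genes whose profile over the 6 libraries lay nearest to PGM2L1 were ZNF385A, BTG2, SLC2A3, ZSWIM4 and F3. Likeness was the root mean square difference of log2 CPM, each gene centred on its own mean, among 9230 genes that averaged 10 CPM or more, and it was 0.061 for ZNF385A and 0.103 for F3. As replicates lay close together, this measure mainly picks genes with a difference between the groups like that of PGM2L1. The log2 fold changes of these 5 genes, between 2.01 and 2.26, thus follow from how they were picked. BTG2 and ZSWIM4 averaged 10 CPM only through the knockdown libraries, with means of 5.19 and 5.16 CPM in siGL2 cells. One of them, SLC2A3, encodes a glucose transporter.

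Genes that act beside the members in the same pathways were taken from 5 lists, 87 genes in all, of which 75 were tested. Of these 75, 29 rose and 23 fell, while 23 stayed short of the threshold, and the median log2 fold change was 0.015. The 69.3% called stand beside 64.3% of all tested genes. With library size alone as the scale, 24 rose and 28 fell. The lists were chosen with earlier results of these data known. Most genes named from each list are the 5 with its smallest p, so their small adjusted p-values follow from that choice. In the list of other glycogen genes, 17 of 23 were tested, 6 rose, 4 fell and 7 did not pass (median 0.082, 58.8% called). The genes for targeting subunits that bring protein phosphatase 1 to glycogen went both ways, with PPP1R3B, PPP1R3C, PPP1R3D and PPP1R3G higher, PPP1R3F lower and PPP1R3E not past the threshold. PPP1R3C stood at 57.0 ± 2.68 CPM in siLINC00152 cells and 24.7 ± 0.411 CPM in siGL2 cells, PPP1R3B at 54.0 ± 1.82 and 27.9 ± 1.22 CPM, and PPP1R3D at 9.98 ± 0.622 and 6.66 ± 0.313 CPM (SD, n = 3). Their log2 fold changes were 1.20 ± 0.05, 0.95 ± 0.05 and 0.58 ± 0.08 (SE). The others were lower in level, with log2 fold changes of 0.60 ± 0.20 for PPP1R3G (edgeR adjusted p = 0.0124), −0.95 ± 0.14 for PPP1R3F (adjusted p = 4.76e-06) and −0.12 ± 0.09 for PPP1R3E (adjusted p = 0.225). GSK3B, a kinase that inhibits glycogen synthase and the gene of the list with the highest CPM averaged over all 6 libraries, rose by 0.31 ± 0.05. PHKA1, a regulatory subunit of phosphorylase kinase, fell by 0.56 ± 0.07. In edgeR, PPP1R3B, PPP1R3C, PPP1R3D, GSK3B and PHKA1 had an adjusted p of at most 2.30e-05. GYG2, PPP1R3A and NHLRC1 had 0 counts in every library, which allows up to 3 counts, or 0.0649 to 0.0715 CPM.

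Among genes of glucose entry and of the hexose phosphates that feed PGM1, 11 of 22 tested rose, 5 fell and 6 were not past the threshold (28 listed, median log2 fold change 0.15). The share called was 72.7%, beside 64.3% of all tested genes. The glucose transporter gene SLC2A3 stood at 359 ± 18.4 CPM in siLINC00152 cells and 79.7 ± 3.57 CPM in siGL2 cells, and SLC2A1 at 731 ± 38.0 and 316 ± 9.97 CPM (SD, n = 3). SLC2A14 is a close copy of SLC2A3, so reads could be assigned to either. The log2 fold changes were 2.17 ± 0.05 and 1.21 ± 0.05 (SE). PFKFB4, which sets the level of a glycolytic activator, rose by 0.46 ± 0.05, TIGAR, which lowers that activator, by 0.46 ± 0.05, and PFKP, a phosphofructokinase gene, by 0.19 ± 0.04. HKDC1, a hexokinase gene, fell by 0.73 ± 0.08. Another gene of the same strand, AC008012.1, overlaps 42.6% of TIGAR exon bases. All 6 had an edgeR adjusted p of 0.000645 or lower.

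The lists around UDP-glucose, hexosamine and mannose went both ways. Of 12 genes of UDP-glucose and galactose, 3 rose, 6 fell and 3 did not pass (median log2 fold change −0.13). UGCG, which attaches glucose from UDP-glucose to ceramide, rose by 1.67 ± 0.05 (SE) and the glucosyltransferase gene UGGT1 by 0.35 ± 0.05, while the galactose genes GALT, GALM and GALK1 fell by 0.45 ± 0.08, 0.42 ± 0.07 and 0.29 ± 0.06 (edgeR adjusted p of 0.000208 or lower for all 5). Genes of the same strand overlap 18.7% of GALT exon bases. Of 15 hexosamine genes, 6 rose, 6 fell and 3 did not pass (median −0.049). Here 80.0% were called, beside the same 64.3% of all tested genes. Next to PGM3 in that pathway, UAP1, which uses its product, rose by 0.56 ± 0.05, and GNPNAT1, which supplies its substrate, fell by 0.72 ± 0.05, although exons of the opposite strand overlap 35.6% of GNPNAT1. GFPT1, the entry enzyme, rose by 0.68 ± 0.04, its relative GFPT2, the gene of the list with the highest mean CPM, fell by 0.22 ± 0.04, and OGT and UAP1L1 rose by 0.47 ± 0.05 and 0.34 ± 0.06 (edgeR adjusted p of 0.000158 or lower for all 6).

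Of 9 mannose phosphate genes, 3 rose, 2 fell and 4 did not pass (median log2 fold change 0.027). The share called was 55.6%, beside 64.3% of all tested genes. PMM1, a phosphomannomutase that can also break down the glucose 1,6-bisphosphate made by PGM2L1, stood at 25.8 ± 1.63 CPM in siLINC00152 cells and 38.2 ± 1.36 CPM in siGL2 cells (SD, n = 3). PMM1 fell by 0.57 ± 0.06 on the log2 scale (SE), whereas PMM2, the phosphomannomutase of protein glycosylation, rose by 0.20 ± 0.05. GMDS, of GDP-fucose synthesis, fell by 0.58 ± 0.07, and FPGT, of fucose salvage, and GMPPA rose by 0.67 ± 0.05 and 0.26 ± 0.05. In edgeR, all 5 of these genes had an adjusted p of at most 0.00172. Genes of the same strand overlap 16.1% of PMM2 and 10.8% of FPGT exon bases, and genes of the opposite strand 10.6% of PMM2.

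**Figure D5:**
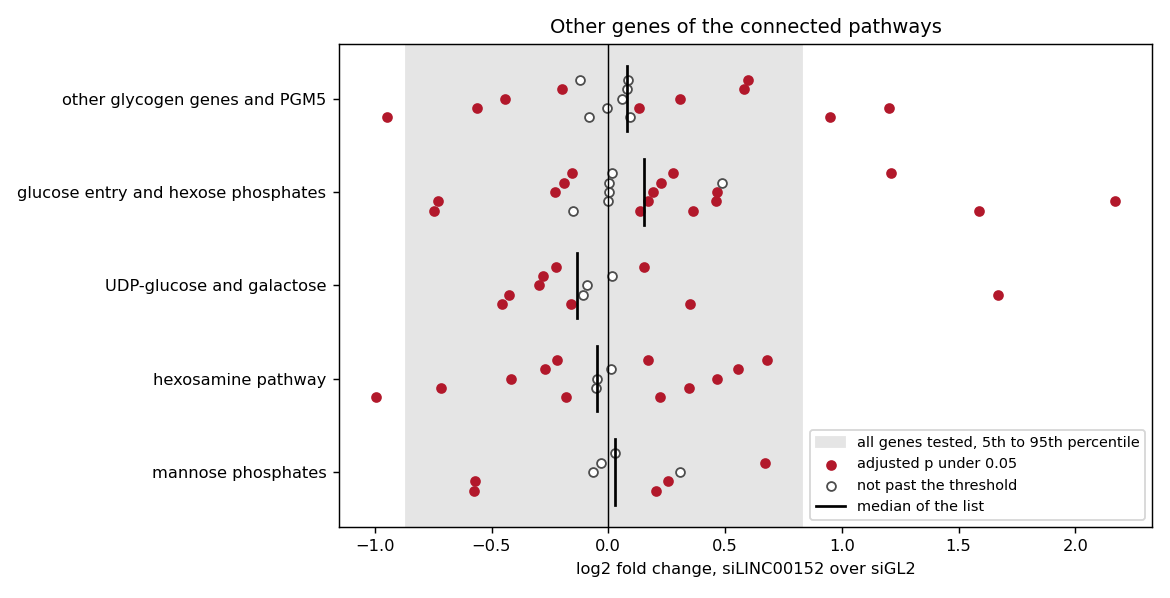
Log2 fold change (siLINC00152 over siGL2) of the 75 tested genes of 5 connected lists, filled where the edgeR adjusted p is under 0.05 (52 genes) and open where it is not (23 genes), with each list's median as a bar. SLC2A3 at 2.17, UGCG at 1.67 and PPP1R3C at 1.20 are among the points to the right of the band that holds the 5th to 95th percentile of all genes tested.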

How the data were processed

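Per the labels' protocols, directional libraries of polyA RNA were read from both ends, 75 bases each. The deposited values are raw counts per gene symbol, 1 table per library. The submitters' processing notes list bcl2fastq, HISAT, HTSeq and DESeq, with no version, and build hg38. The annotation and whether strand was used are not stated there. From the counts, edgeR 4.0.16 (R 4.3.3) was run on all 6 libraries: filterByExpr (minimum count 10, minimum total 15), TMM scaling, robust quasi-likelihood test, Benjamini-Hochberg adjustment over 14078 genes, two-sided. SE is the log2 fold change divided by the square root of F. DESeq2 1.42.0 was an alternative. The steps were tested on simulated data. Gene lengths, coordinates and shared 75-base stretches come from GENCODE 29 (GRCh38). Members and lists were chosen with earlier results of these data known. Named were all members, LINC00152, the 5 tested genes with the smallest p and the one with the highest mean CPM of each list, the 5 genes nearest to PGM2L1 (pseudocount 0.5 CPM) and each cell type's most abundant marker. One gene that this rule picks is not reported here. DOPEY1, markers near 0, PPP1R3E, PPP1R3F, PPP1R3G, untested relatives and genome neighbours were named after their values were seen. Replicate letters are shared by the groups, and no label says that they mark a batch.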

Additional observations from a re-analysis of the deposited data

How the results depend on the processing

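Over 11 alternatives, the log2 fold changes of PGM1, PGM2L1, PGM3, UGP2, GYS1, GBE1 and PYGL kept their direction and their side of the threshold, with PGM2L1 between 2.14 and 2.24 and GBE1 between 0.50 and 0.58. PGM2 stayed below the threshold in all 11 and had a negative sign, −0.033, when library size alone set the scale, a setting that moved the median of all genes by −0.067. GYG1 passed under library size alone, and PYGB lost its call when siGL2 B, siLINC00152 B or siLINC00152 C was left out, so members called lower numbered 1 to 2 over the fits without 1 library. The causes were not tested. With the longest transcript as the gene length, 8 of the 10 members kept their place in the order of levels. LINC00152 and the 28 genes that the rule picks from the other lists kept direction and side of the threshold in every alternative. Counts of calls over all genes and over the lists stayed within 1.5 times. The fit with a replicate block called 4571 genes higher and 4584 lower, against 4529 and 4529 without it, and changed no call among the members. Deviations of same-lettered libraries correlated at 0.109 (A), −0.0199 (B) and 0.104 (C), and those of unlike letters at −0.15 to 0.0607. Not every library matched its own letter best. No label says that the letters are pairs, so they were not taken as pairs, and whether libraries A or C share an effect was not tested.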

Other observations

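Values of genes that lie beside members in the genome varied in direction, and those beside PGM2L1, GYG1 and GYS1 are given below as examples. Of genes overlapping other members, ITGB3BP at PGM1 had a log2 fold change of −0.24, ABHD12 at PYGB 0.24 and RWDD2A at PGM3 0.30. VPS54, 584 bases from UGP2, stood at 0.29. Exons of ITGB3BP overlap 4.68% of PGM1 exon bases on the opposite strand. Within 100 kb of PGM2L1 the tested neighbours were PPME1 (log2 fold change 0.14, edgeR adjusted p = 0.0181), POLD3 (−0.37, adjusted p = 3.59e-06), LIPT2 (0.64, adjusted p = 0.0120) and P4HA3 (0.45, adjusted p = 0.237). LIPT2 and P4HA3 were low, with means of 0.955 and 0.390 CPM in siLINC00152 cells and 0.615 and 0.287 CPM in siGL2 cells. Beside GYG1, HLTF, which lies 2459 bases away and encodes a DNA helicase-like protein, stood at 62.5 CPM in siLINC00152 cells and 111 CPM in siGL2 cells, a log2 fold change of −0.83 (adjusted p = 4.87e-12), while GYG1 did not pass. RUVBL2, whose gene lies 138 bases from GYS1 and encodes a helicase of chromatin complexes, fell by 0.54 on the log2 scale (adjusted p = 1.89e-09), and FTL on the other side stood at 0.062 (adjusted p = 0.282).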
